A study of Mus musculus with 18 samples.

Results

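The circular RNAs described here come from 8 genes of synaptic adhesion, Nrxn3, Nlgn1, Il1rapl1, Ptprd, Ptprs, Adgrl2, Adgrl3 and Nectin3, in mouse brain. Every circle whose deposited gene name was one of these 8 was taken, which gave 546 of 208914 circles on Illumina and 264 of 166212 circles on Oxford Nanopore (ONT). Illumina listed 88 circles of Nrxn3, 57 of Nlgn1, 30 of Il1rapl1, 178 of Ptprd, 29 of Ptprs, 34 of Adgrl2, 101 of Adgrl3 and 29 of Nectin3. ONT listed 53, 20, 10, 56, 36, 17, 55 and 17 circles in the same order of genes. These circles held 110389 reads, 0.445% of all back-splice reads, on Illumina and 12582 reads, 0.413%, on ONT.

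Circular RNA was enriched with RNase R, which digests linear RNA, from whole brains of male C57BL/6J mice aged 3 to 4 months, and sequenced after rolling-circle reverse transcription with random hexamers. Adar1-2KO mice had the genotype Adar1E861A/E861A Ifih-/- Adar2-/-Gria2R/R, that is, an ADAR1 without editing activity, no MDA5 sensor (Ifih1), no ADAR2 and a Gria2 gene that encodes the edited receptor subunit. Adar2KO mice had the genotype Adar2-/-Gria2R/R, and wild type (WT) mice carried none of these alleles. Each genotype had n = 3 biological replicates on Illumina and on ONT, and the ONT library of WT replicate 1 was not analysed here. Both mutants carry the Gria2 allele and Adar1-2KO mice alone lack Ifih1, so effects of these alleles and of the editing enzymes cannot be told apart in the comparisons with WT. Adar1-2KO differs from Adar2KO in both the Adar1 and the Ifih1 alleles, so their effects cannot be told apart in that comparison either.

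ADAR1 and ADAR2 deaminate adenosine to inosine in double-stranded RNA, and paired inverted repeats in the introns beside an exon are known both as editing substrates and as a help to circle formation. A circle forms when a splice donor is joined back to an upstream acceptor, so that the exons between them close into a ring. The 8 genes encode transmembrane adhesion proteins, most of which bind partners across the synaptic cleft. Presynaptic neurexins bind postsynaptic neuroligins, presynaptic receptor phosphatases of the LAR family bind IL1RAPL1 and other postsynaptic ligands, latrophilins are postsynaptic receptors for teneurins and FLRT proteins, and nectins join cell membranes and are tied to actin by afadin.

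The back-splice junctions identify the circles on which the results turn. In each of the sequences below, the last 25 bases of the closing exon are in lower case and the first 25 bases of the opening exon (or the whole of it, where it is shorter) are in capitals, read 5′ to 3′ on the strand of the gene, plus for Nrxn3 and Adgrl3 and minus for the other genes. Exon sequence is from GENCODE M21 transcripts whose exon lengths matched the exon blocks of the ONT circles, and circle positions are those of the deposited tables (GRCm39).
Nrxn3 exons 10 to 14 of 20, chr12:89469788-89499780: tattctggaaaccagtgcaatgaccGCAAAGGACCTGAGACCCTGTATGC
Nlgn1 exon 3 of 8, chr3:26187391-26188201: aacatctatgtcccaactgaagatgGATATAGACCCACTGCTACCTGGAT
Il1rapl1 exons 3 to 5 of 11, chrX:86344191-86462908: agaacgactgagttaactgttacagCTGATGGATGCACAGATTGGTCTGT
Ptprd exons 10 to 13 of 36, chr4:76021192-76051569: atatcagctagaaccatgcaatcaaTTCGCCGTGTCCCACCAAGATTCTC
Ptprs exons 7 to 9 of 33, chr17:56741881-56745055: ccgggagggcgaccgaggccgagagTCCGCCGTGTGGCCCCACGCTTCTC
Adgrl2 exons 5 to 9 of 23, chr3:148555402-148565169: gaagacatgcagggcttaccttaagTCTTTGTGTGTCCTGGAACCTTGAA
Adgrl3 exons 12 to 15 of 25, chr5:81836356-81842474: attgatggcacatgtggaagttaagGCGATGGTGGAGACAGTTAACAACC
Adgrl3 exons 5 and 6 of 25, chr5:81657571-81660631: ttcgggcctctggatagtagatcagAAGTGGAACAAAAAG
Nectin3 exons 6 and 7 of 9, chr16:46256717-46258431: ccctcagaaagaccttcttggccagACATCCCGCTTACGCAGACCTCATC

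Of the 264 ONT circles, 263 had a strand, and the deposited tables list 130 of those with AG and GT at the splice sites and no asterisk, a mark whose meaning is not given in the sources used here. The exon blocks of 104 circles, with 61.3% of the ONT reads, matched consecutive exons of a transcript. Their spliced length had a median of 782.5 nt (159 to 2307 nt) over a median of 4 exons. By these matches, coding sequence alone made up 92 of the 104, the start codon lay in 12 and the stop codon in 0. The first exon of the transcript was in 2 and the last exon in 0. The Adgrl3 circle chr5:81457718-81457926, of 1 exon, was matched to exon 14 of 25 by its length of 209 nt alone. By position it is exon 4 of 27, with the start codon and 55 nt of coding sequence, so these counts misplace it. Exons at circle ends were alike between paralogues. Adgrl2 exon 5 and Adgrl3 exon 6 were both 801 nt long with 70.5% identical bases, and Ptprd exon 10 and Ptprs exon 7 were both 270 nt long with 74.8% identical bases. Circles that open at Adgrl2 exon 5 held 69.9% of the Adgrl2 reads on Illumina and 74.1% on ONT, and circles that close at Adgrl3 exon 6 held 13.1% and 34.8% of the Adgrl3 reads. Circles that open at Ptprd exon 10 held 29.3% and 35.3% of the Ptprd reads. Those that open at Ptprs exon 7 held 25.8% of the Ptprs reads on Illumina (90 reads) and 3.60% on ONT (8 reads).

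On Illumina a library held 1516772 to 4308264 back-splice reads over 21736 to 76743 circles, and on ONT 186594 to 673705 reads over 22347 to 47174 circles. Adar1-2KO replicate 3 had the most Illumina reads and the fewest circles, and listed 85 circles of the 8 genes, against 185 to 258 in the other libraries. Across the Illumina circles that passed the filter on low counts, its counts had Spearman correlations of 0.44 to 0.47 with the other 8 Illumina libraries, against 0.55 to 0.64 among those 8. On ONT the library of the same name also stood apart, with 0.41 to 0.53, against 0.59 to 0.78 among the other 7. Where it stood out in a fold change of the 8 genes, the value without it is given as well. The WT libraries, Adar1-2KO replicate 2 and most reads of Adar2KO replicate 3 came from 1 flow cell by their read names, most reads of the other Adar2KO and Adar1-2KO libraries with read names came from other flow cells, and that of Adar1-2KO replicate 1 is not known here. Circles of Adarb1, which encodes ADAR2, were present in both mutants, with 215 to 759 reads in Adar1-2KO, 317 to 353 in Adar2KO and 84 to 196 in WT libraries; the labels do not give the deleted part, so these reads check no genotype. Circles of all 10 neuronal marker genes were listed, with summed Illumina levels of 21819 to 26655 CPM in Adar1-2KO, 21528 to 23225 CPM in Adar2KO and 22784 to 25227 CPM in WT. CPM here is counts per 1000000 back-splice reads after TMM scaling. Markers of the oligodendrocyte lineage summed to 567 to 1266 CPM in Adar1-2KO, 569 to 662 CPM in Adar2KO and 519 to 575 CPM in WT on Illumina. On ONT the neuronal markers summed to 13547 to 21622 CPM in Adar1-2KO, 10737 to 13761 CPM in Adar2KO and 14878 to 20521 CPM in WT, and 1 of 9 tested, Syt1, rose in Adar1-2KO against Adar2KO (1.0 ± 0.20, adjusted p = 0.0261 by edgeR). The oligodendrocyte markers summed there to 935 to 1474 CPM in Adar1-2KO, 939 to 1203 CPM in Adar2KO and 706 to 917 CPM in WT. The part of these markers in the results below, among them the ONT differences of Nlgn1 and Nectin3 from Adar2KO, was not tested. In whole brain, fewer cells of a type and less RNA per cell cannot be told apart.

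The question of the study's design is whether circles differ between brains that lack editing enzymes and WT brains. With the quasi-likelihood test of edgeR, adjusted by Benjamini-Hochberg over all circles, 0 of 152 tested circles of the 8 genes passed 0.05 on Illumina in any of the 3 comparisons. The background was also low. The share of all 38297 tested circles that passed was 0.0627% for Adar1-2KO against WT, 0.0209% for Adar1-2KO against Adar2KO and 0.0209% for Adar2KO against WT. On ONT 0 of 55 tested circles passed, with a background of 0%, 0.492% and 0.00965% of 10367 circles in the same order of comparisons. Summed per host gene, 0 of 8 genes passed on either platform. The background for host genes was 0.104%, 0.0463% and 0.0695% of 8630 on Illumina and 0.0376%, 1.03% and 0.0751% of 5324 on ONT.

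At an unadjusted p under 0.05 the 8 genes had 8, 8 and 2 of 152 Illumina circles, beside 6.74%, 6.38% and 1.82% of all circles. On ONT they had 5, 5 and 1 of 55 circles, beside 7.49%, 10.6% and 4.28% of all circles. Of the 8 host genes, 1, 1 and 1 did so on Illumina, beside 7.71%, 6.58% and 1.76% of all host genes, and 3, 3 and 0 on ONT, beside 10.2%, 13.1% and 5.92%. For circles these counts are near the background shares. With DESeq2 as an alternative, 0, 1 and 0 of the Illumina circles passed an adjusted p of 0.05 (background 0.48%, 0.478% and 0.0862%), and 2, 3 and 0 of the ONT circles (background 0.482%, 1.75% and 0.0965%). DESeq2 called 1, 0 and 0 of the host genes on Illumina (background 0.579%, 0.44% and 0.174%) and 0, 3 and 0 on ONT (background 1.15%, 3.25% and 0.301%). The median log2 fold change of the 152 Illumina circles in Adar1-2KO against WT was -0.08, with 65 of them higher, and that of all circles was -0.26. Leaving out 1 library at a time, the first median lay between -0.36 and 0.0034 and the second between -0.57 and -0.03, lowest without Adar1-2KO replicate 1 and highest without Adar1-2KO replicate 3. Scaled by mapped reads instead, both turned positive, to 0.19 (91 of 152 higher) and 0.07. Over the 55 ONT circles it was -0.20, with 23 higher, beside 0.04 over all circles, and without WT replicate 2 it turned to 0.12, beside 0.09. In Adar2KO against WT the median of the Illumina circles was 0.05, with 84 of 152 higher, beside 0.04 over all circles, and that of the ONT circles was 0.02, with 28 of 55 higher, beside 0.18.

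**Figure D1:**
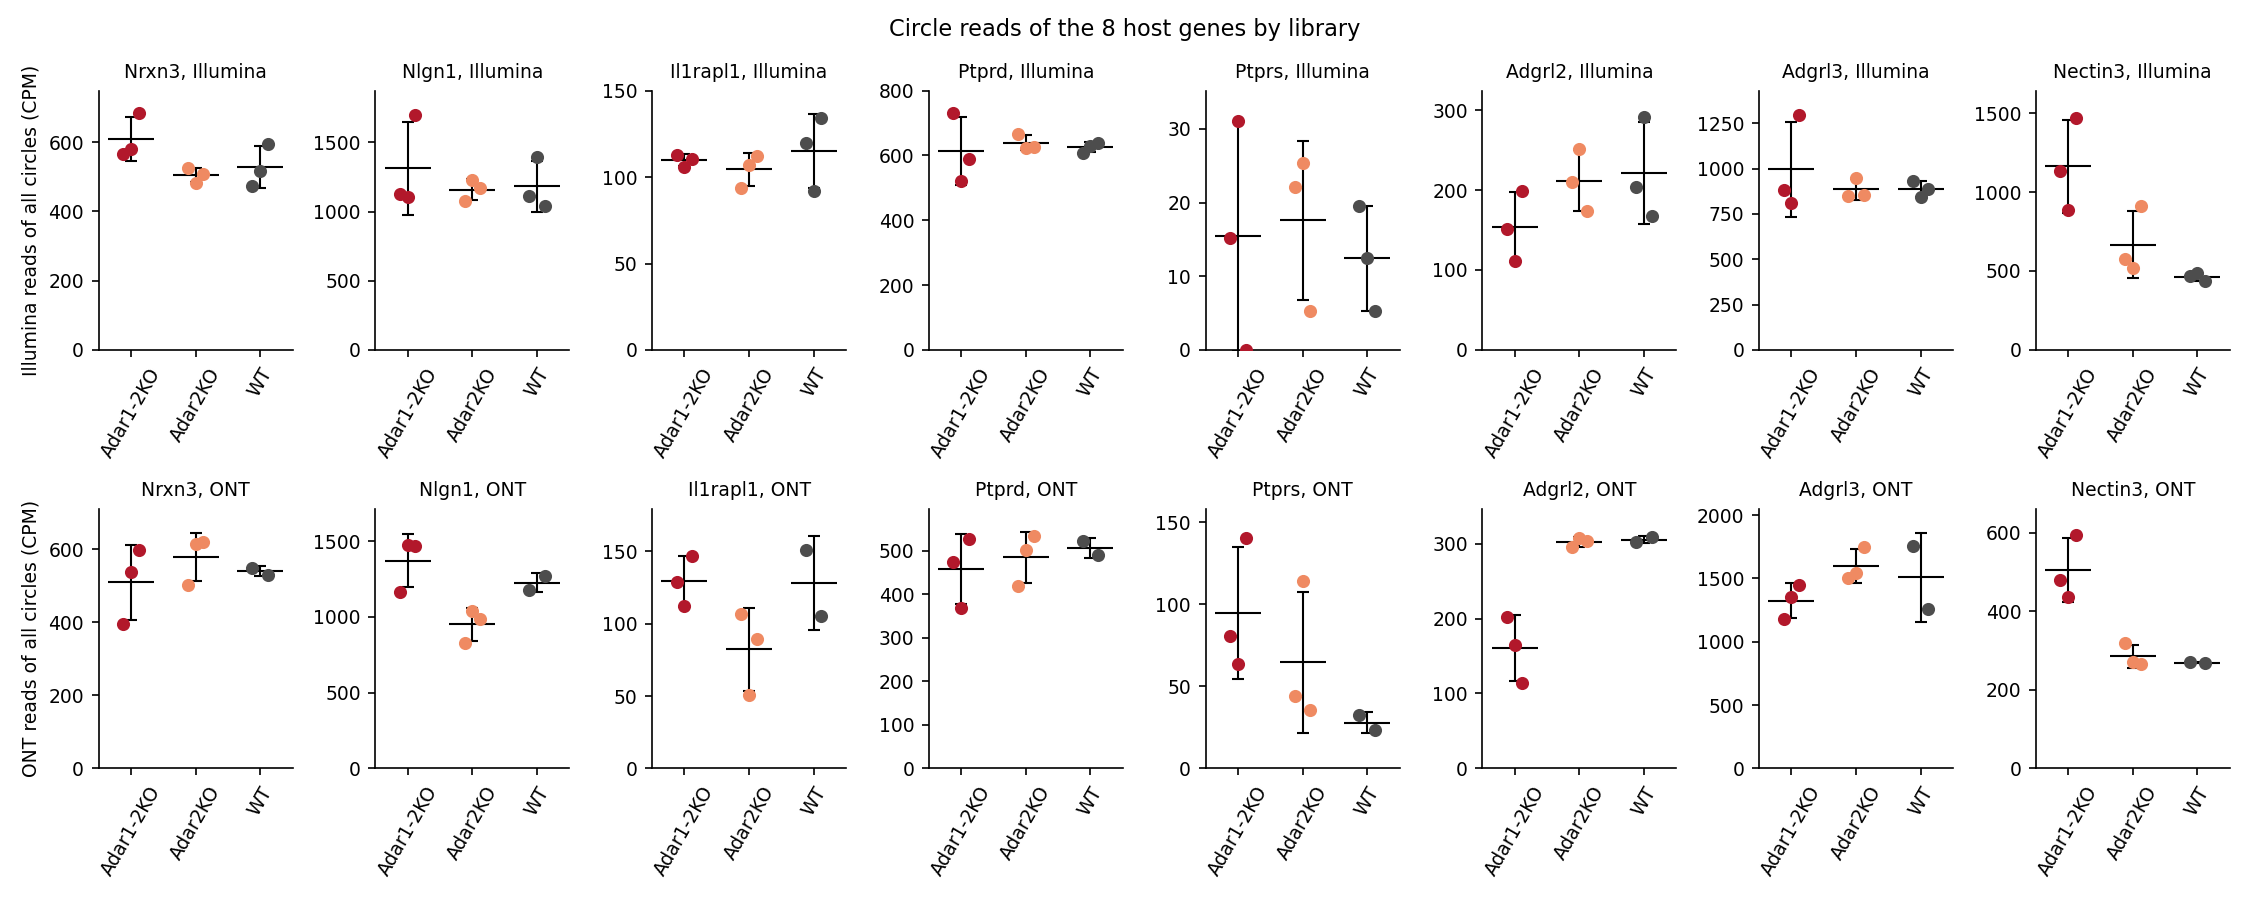
Reads of all circles of each host gene in each library as TMM-scaled CPM (linear axes from 0), for Adar1-2KO, Adar2KO and WT on Illumina and ONT; points are libraries and the bars show mean ± SD. Nectin3 in Adar1-2KO lies at 884 to 1470 CPM on Illumina, against 435 to 485 CPM in WT, and Adgrl2 in Adar1-2KO lies at 114 to 202 CPM on ONT, against 302 to 309 CPM in WT.

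Nrxn3 encodes a presynaptic neurexin, whose extracellular LNS domains are assembled by extensive alternative splicing. Its circles together averaged 610 ± 63 CPM in Adar1-2KO, 506 ± 21 CPM in Adar2KO and 528 ± 61 CPM in WT on Illumina (SD, n = 3 each). The log2 fold change was 0.21 ± 0.17 (SE) in Adar1-2KO against WT, with an adjusted p of 0.864 by edgeR. On ONT the totals were 511 ± 103 CPM in Adar1-2KO, 579 ± 66 CPM in Adar2KO and 541 ± 13 CPM in WT (n = 2 for WT, n = 3 for the mutants), with overlapping groups.

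The most abundant Nrxn3 circle joins exon 14 back to exon 10, 987 nt in all, and held 20.9% of the Nrxn3 reads on Illumina. It had 282, 164 and 841 reads in Adar1-2KO, 265, 213 and 344 in Adar2KO and 277, 254 and 183 in WT. Scaled for depth, Adar1-2KO replicate 3 was high at 204 CPM and the other 8 libraries lay at 72.1 to 115 CPM. On ONT the libraries that listed this form first held 342 of its 395 reads. Those that listed first a form with a further block of 27 nt held 53. Reads were not split between forms within a library. The next circle, of exons 16 to 18 (570 nt, chr12:90135694-90171592), had 198, 198 and 526 reads in Adar1-2KO, 179, 183 and 188 in Adar2KO and 183, 150 and 119 in WT. The circle of exons 17 and 18 (398 nt), which shares its closing exon, had 249, 211 and 377 reads in Adar1-2KO, 216, 0 and 267 in Adar2KO and 165, 128 and 117 in WT. One low-count circle, chr12:88817049-88819882, had the lowest p of the 8 genes in Adar2KO against WT (adjusted p = 1 by edgeR), with 0 reads in all Adar2KO libraries and 45, 0 and 1 in WT, where the groups overlapped.

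Nlgn1 encodes a postsynaptic neuroligin of excitatory synapses. Its circles averaged 1311 ± 336 CPM in Adar1-2KO, 1158 ± 76 CPM in Adar2KO and 1182 ± 185 CPM in WT on Illumina (SD, n = 3 each). On ONT they averaged 1372 ± 178 CPM in Adar1-2KO, 951 ± 107 CPM in Adar2KO and 1227 ± 65 CPM in WT. The ONT difference of Adar1-2KO from Adar2KO was 0.53 ± 0.18 on the log2 scale, with an adjusted p of 0.200 by edgeR and 0.0445 by DESeq2.

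The leading Nlgn1 circle is exon 3 alone, 811 nt, which holds the start codon, 318 nt of 5′ untranslated sequence and 493 nt of coding sequence. On Illumina it had 1815, 1164 and 3715 reads in Adar1-2KO, 1165, 1293 and 1641 in Adar2KO and 1551, 1462 and 730 in WT. These correspond to 651 ± 218 CPM in Adar1-2KO, 520 ± 60 CPM in Adar2KO and 533 ± 102 CPM in WT, and the groups overlapped. On ONT it had 215, 170 and 453 reads in Adar1-2KO, 105, 161 and 160 in Adar2KO and 74 and 77 in WT. All 3 Adar1-2KO libraries, at 512 to 699 CPM, lay above the other 5, at 281 to 384 CPM. The ONT log2 fold change was 0.79 ± 0.23 in Adar1-2KO against Adar2KO (adjusted p = 0.222 by edgeR, 0.0438 by DESeq2) and 0.73 ± 0.26 against WT (adjusted p = 0.538 by edgeR). Without Adar1-2KO replicate 3 these were 0.67 ± 0.21 and 0.60 ± 0.23. As a share of the Nlgn1 ONT reads this circle took 44.9%, 42.9% and 50.3% in Adar1-2KO, 37.4%, 37.6% and 41.5% in Adar2KO and 33.8% and 35.3% in WT. The 3 groups did not overlap. The exact two-sided permutation p was 0.1 in each of the 3 comparisons, Adar2KO against WT included, the smallest possible with 3 against 3 or 2. The Illumina shares, 46.7% to 54.5% in Adar1-2KO, 41.2% to 46.8% in Adar2KO and 44.7% to 48.6% in WT, overlapped.

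A longer Nlgn1 circle adds a 60-nt exon (871 nt, chr3:26186893-26188201). It had 1322, 854 and 1482 Illumina reads in Adar1-2KO, 963, 821 and 1156 in Adar2KO and 1066, 1045 and 524 in WT, which is 376 ± 16 CPM in Adar1-2KO, 372 ± 15 CPM in Adar2KO and 377 ± 76 CPM in WT. The groups overlapped, with a log2 fold change of 0.00 ± 0.23 in Adar1-2KO against WT. A further Nlgn1 circle (1075 nt, chr3:26187391-26189538) had 282, 178 and 599 reads in Adar1-2KO, 243, 182 and 252 in Adar2KO and 270, 197 and 99 in WT.

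Ptprd and Ptprs encode receptor tyrosine phosphatases of the LAR family on the presynaptic side. Ptprd circles averaged 614 ± 106 CPM in Adar1-2KO, 639 ± 23 CPM in Adar2KO and 625 ± 15 CPM in WT on Illumina, and 457 ± 80 CPM, 485 ± 58 CPM and 507 ± 23 CPM in the same groups on ONT. The Illumina log2 fold change was -0.03 ± 0.18 in Adar1-2KO against WT. Reads were spread over more circles than in the other genes, since the leading one held 16.7% of the Ptprd reads on Illumina.

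That circle, of exons 10 to 13 (1131 nt), had 310, 128 and 574 Illumina reads in Adar1-2KO, 279, 322 and 223 in Adar2KO and 320, 226 and 176 in WT. Exons 23 to 25 formed a circle (372 nt, chr4:75957518-75978066) with 470, 242 and 221 in Adar1-2KO, 293, 205 and 336 in Adar2KO and 351, 197 and 166 in WT. A longer circle of exons 10 to 16 (chr4:76013757-76051569) had 93, 43 and 370 in Adar1-2KO, 122, 117 and 171 in Adar2KO and 118, 101 and 67 in WT. The groups overlapped in each of the 3. Among low-count circles, an intronic one (chr4:76683937-76875232) had 51, 7 and 130 reads in Adar1-2KO, 9, 2 and 1 in Adar2KO and 5, 0 and 0 in WT (log2 fold change 4.71 ± 1.65 against WT, adjusted p = 0.718 by edgeR, and 3.83 ± 1.54 without Adar1-2KO replicate 3). Another (chr4:76002555-76051569), which also opens at exon 10, had 0 reads in all Adar1-2KO libraries, against 14, 22 and 7 in Adar2KO and 10, 0 and 0 in WT. In Adar2KO the mean level was 5.89-fold the mean floor of 3 counts per library in Adar1-2KO (adjusted p = 0.764 by edgeR for Adar1-2KO against Adar2KO). This fold leaves out the spread within Adar2KO. Adar1-2KO replicate 3 listed only 85 circles of the genes described here, so its 0 may understate the level. WT, at a mean of 1.06 CPM, overlapped with both mutants.

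Ptprs circles were few, with 349 Illumina reads in all and 0 in Adar1-2KO replicate 3. They summed to 52, 70 and 0 reads in Adar1-2KO, 58, 57 and 16 in Adar2KO and 61, 27 and 8 in WT. The leading one (chr17:56728240-56729286) had 3, 20 and 0 reads in Adar1-2KO, 10, 15 and 0 in Adar2KO and 29, 4 and 0 in WT. The circle of exons 7 to 9 (986 nt), which opens at the exon like Ptprd exon 10, had 10, 8 and 0 reads in Adar1-2KO, 12, 4 and 0 in Adar2KO and 12, 0 and 0 in WT. Differences in these circles were not detectable at this depth. On ONT the Ptprs total was 33, 17 and 86 reads in Adar1-2KO, 15, 47 and 14 in Adar2KO and 6 and 4 in WT (1.77 ± 0.72 against WT, adjusted p = 0.413 by edgeR, and 1.36 ± 0.67 without Adar1-2KO replicate 3), and 69 of the 86 reads were of 1 circle, chr17:56719754-56720101, listed in that library alone.

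Il1rapl1 encodes a postsynaptic ligand of PTPRD, related to interleukin-1 receptors. Its circles averaged 110 ± 3.5 CPM in Adar1-2KO, 104 ± 9.6 CPM in Adar2KO and 115 ± 21 CPM in WT on Illumina. The circle of exons 3 to 5 (621 nt) held 75.2% of them, with 265, 186 and 349 reads in Adar1-2KO, 199, 193 and 223 in Adar2KO and 300, 152 and 144 in WT. This is 81.7 ± 3.1 CPM in Adar1-2KO, 78.4 ± 4.7 CPM in Adar2KO and 84.4 ± 14.8 CPM in WT, a log2 fold change of -0.05 ± 0.40 in Adar1-2KO against WT. On ONT it had 37, 23 and 78 reads in Adar1-2KO, 29, 17 and 22 in Adar2KO and 24 and 16 in WT.

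An intronic Il1rapl1 circle of low count (chrX:86090302-86097141) differed most among the Il1rapl1 circles. It had 0 reads in all 3 Adar1-2KO libraries, against 13, 12 and 40 in Adar2KO and 5, 6 and 7 in WT. In Adar2KO the mean level was 8.04-fold, and in WT 2.94-fold, the mean floor of 3 counts per library in Adar1-2KO. These folds leave out the spread within Adar2KO and WT. Adar1-2KO replicate 3 has the lowest floor (0.729 CPM) but listed only 85 circles of the 8 genes, so its 0 may understate the level. The adjusted p by edgeR was 0.704 against Adar2KO and 0.718 against WT, and by DESeq2 0.00744 against Adar2KO.

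Adgrl2 and Adgrl3 encode latrophilins, adhesion receptors coupled to G proteins. Adgrl2 circles were lower in Adar1-2KO on both platforms, without passing the edgeR test. On ONT the Adgrl2 total was 202, 164 and 114 CPM in Adar1-2KO, 296, 308 and 304 CPM in Adar2KO and 302 and 309 CPM in WT. All 3 Adar1-2KO libraries lay below the other 5, which stood close together. The log2 fold change was -0.94 ± 0.30 against WT (adjusted p = 0.262) and -0.92 ± 0.26 against Adar2KO (adjusted p = 0.127, both by edgeR, and 0.0475 against Adar2KO by DESeq2). Without Adar1-2KO replicate 3, the lowest, they were -0.73 ± 0.25 and -0.70 ± 0.22. On Illumina the total was 151, 112 and 199 CPM in Adar1-2KO, 210, 252 and 174 CPM in Adar2KO and 204, 292 and 168 CPM in WT, and the groups overlapped, with -0.52 ± 0.29 against WT (adjusted p = 0.707 by edgeR), and -0.75 ± 0.28 without Adar1-2KO replicate 3. Adar2KO differed from WT by -0.02 ± 0.29 on ONT and -0.06 ± 0.29 on Illumina.

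The circle of Adgrl2 exons 5 to 9 (1424 nt) held 46.4% of the Illumina reads of the gene. It had 272, 95 and 200 reads in Adar1-2KO, 273, 332 and 239 in Adar2KO and 286, 367 and 136 in WT. Its level was 57.0 ± 20.8 CPM in Adar1-2KO, 110 ± 32 CPM in Adar2KO and 113 ± 43 CPM in WT (-0.99 ± 0.46 in Adar1-2KO against WT, adjusted p = 0.735 by edgeR). On ONT it had 49, 19 and 62 reads in Adar1-2KO, 52, 68 and 62 in Adar2KO and 34 and 29 in WT (-0.69 ± 0.35, adjusted p = 0.704). The circle of exons 5 to 10 (1608 nt, chr3:148552485-148565169) had 35, 56 and 162 reads in Adar1-2KO, 42, 75 and 65 in Adar2KO and 133, 83 and 30 in WT. Another circle (chr3:148596048-148660371) had 434 of its 664 reads in Adar1-2KO replicate 3 and 10 to 82 in each other library.

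Adgrl3 circles averaged 996 ± 263 CPM in Adar1-2KO, 885 ± 55 CPM in Adar2KO and 887 ± 46 CPM in WT on Illumina, and 1324 ± 136 CPM, 1598 ± 133 CPM and 1509 ± 351 CPM in the same groups on ONT. The leading Illumina circle, of exons 12 to 15 (693 nt), had 850, 501 and 1901 reads in Adar1-2KO, 553, 543 and 693 in Adar2KO and 859, 498 and 290 in WT (0.47 ± 0.32 against WT, adjusted p = 0.967 by edgeR). Scaled for depth, Adar1-2KO replicate 3 was high at 462 CPM and the other 8 libraries lay at 182 to 273 CPM; without it the log2 fold change was 0.08 ± 0.22. Exons 8 to 11 formed a circle (632 nt, chr5:81794257-81811271) with 342, 200 and 130 reads in Adar1-2KO, 300, 276 and 267 in Adar2KO and 293, 206 and 208 in WT. A circle of exons 8 to 15 (1325 nt), which spans both, had 196, 133 and 233 in Adar1-2KO, 169, 126 and 164 in Adar2KO and 166, 146 and 91 in WT.

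On ONT the leading Adgrl3 circle was another one, which joins the 801-nt exon 6 back to exon 5, an exon of only 15 nt (its sequence, AAGTGGAACAAAAAG, is printed in capitals in the junction above). It had 79, 74 and 125 reads in Adar1-2KO, 152, 160 and 205 in Adar2KO and 94 and 73 in WT. Its level was 211 ± 36 CPM in Adar1-2KO, 421 ± 48 CPM in Adar2KO and 396 ± 53 CPM in WT, and all 3 Adar1-2KO libraries lay below the other 5. The log2 fold change was -1.0 ± 0.23 against Adar2KO (adjusted p = 0.141 by edgeR, 0.0137 by DESeq2) and -0.91 ± 0.26 against WT (adjusted p = 0.463 by edgeR, 0.0415 by DESeq2), and without Adar1-2KO replicate 3 it was -0.93 ± 0.23 and -0.86 ± 0.25. It made up 16.4%, 20.4% and 14.1% of the Adgrl3 ONT reads in Adar1-2KO, 29.9%, 25.2% and 29.9% in Adar2KO and 28.8% and 33.8% in WT. No Illumina read was assigned to it. Illumina instead listed exon 6 alone (chr5:81659831-81660631), which ONT did not list, with 113, 137 and 16 reads in Adar1-2KO, 205, 163 and 149 in Adar2KO and 231, 138 and 77 in WT (-0.91 ± 0.72 against WT, adjusted p = 1 by edgeR, and -0.37 ± 0.38 without Adar1-2KO replicate 3). Its level was 32.6 ± 28.2 CPM in Adar1-2KO, 66.6 ± 15.2 CPM in Adar2KO and 61.0 ± 12.5 CPM in WT, and Adar1-2KO replicate 3 was the lowest at 3.9 CPM.

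**Figure D2:**
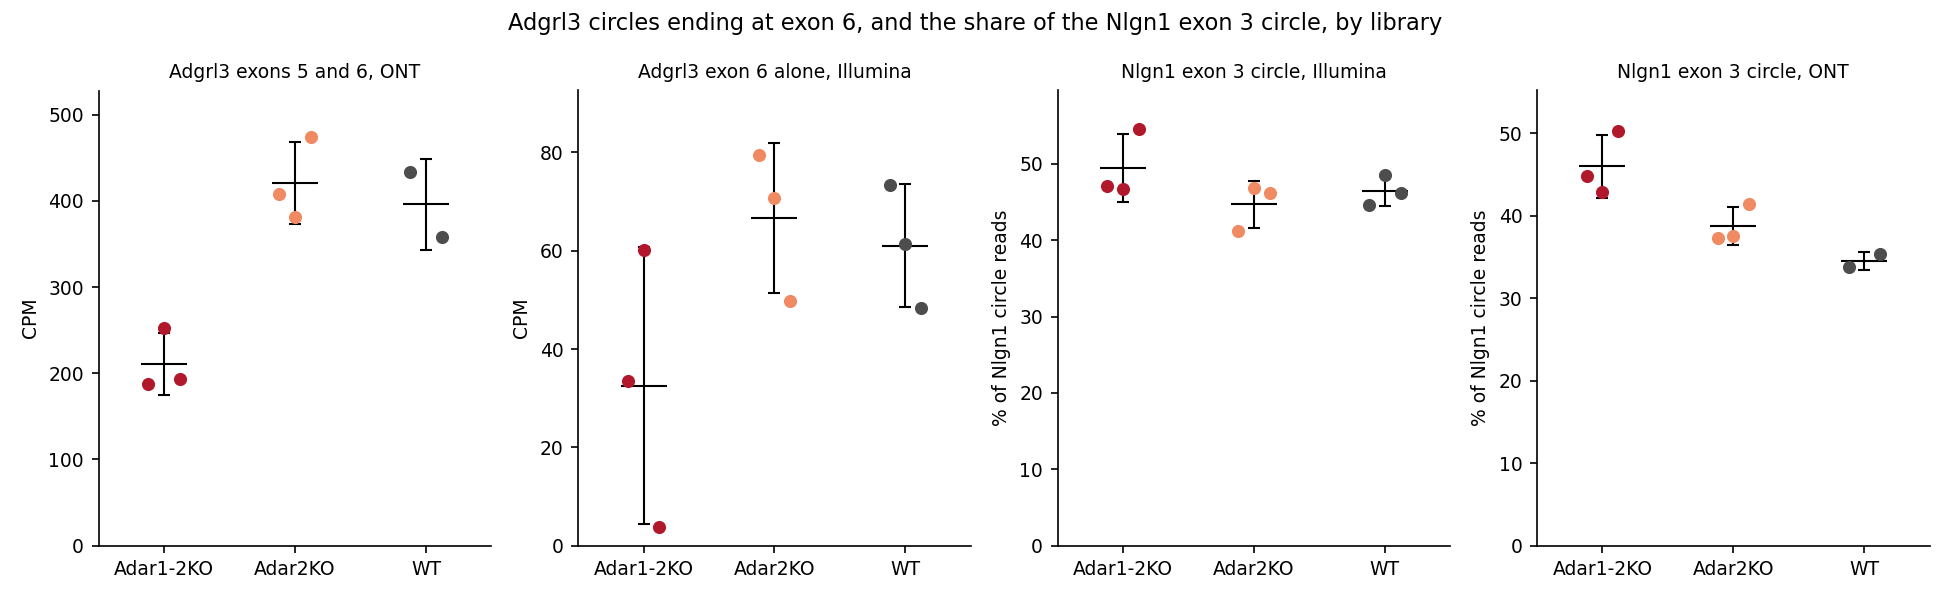
From left to right, CPM of the Adgrl3 circle of exons 5 and 6 on ONT, CPM of the Adgrl3 circle of exon 6 alone on Illumina, and the share of the Nlgn1 circle reads (%) taken by its exon 3 circle on Illumina and on ONT, for the libraries of Adar1-2KO, Adar2KO and WT; points are libraries and bars show mean ± SD. The 3 Adar1-2KO libraries lie at 188 to 253 CPM in the first panel, below the other 5, and the Nlgn1 shares on ONT lie at 42.9% to 50.3% in Adar1-2KO and 33.8% to 35.3% in WT.

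Nectin3 encodes an adhesion protein of puncta adherentia, the cell junctions beside the synapse. Its circles were higher in Adar1-2KO than in WT on both platforms, in every library, and this was the difference of lowest p among the 8 host genes, though it did not pass the edgeR test. On Illumina the Nectin3 total was 1136, 884 and 1470 CPM in Adar1-2KO, 575, 519 and 909 CPM in Adar2KO and 470, 485 and 435 CPM in WT. Each mutant library lay above each WT library, and Adar2KO replicate 3 lay within the Adar1-2KO range. The log2 fold change was 1.33 ± 0.25 in Adar1-2KO against WT (adjusted p = 0.0874 by edgeR, 0.00067 by DESeq2), 0.80 ± 0.24 in Adar1-2KO against Adar2KO (adjusted p = 0.691) and 0.53 ± 0.24 in Adar2KO against WT (adjusted p = 1). On ONT it was 480, 437 and 594 CPM in Adar1-2KO, 319, 271 and 265 CPM in Adar2KO and 270 and 269 CPM in WT. There the log2 fold change was 0.91 ± 0.25 against WT (adjusted p = 0.215 by edgeR) and 0.82 ± 0.21 against Adar2KO (adjusted p = 0.092 by edgeR, 0.0175 by DESeq2), while Adar2KO differed from WT by 0.08 ± 0.25. Without Adar1-2KO replicate 3 the log2 fold change against WT was 1.12 ± 0.22 on Illumina and 0.77 ± 0.24 on ONT, and against Adar2KO it was 0.61 ± 0.22 and 0.70 ± 0.20.

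**Figure D3:**
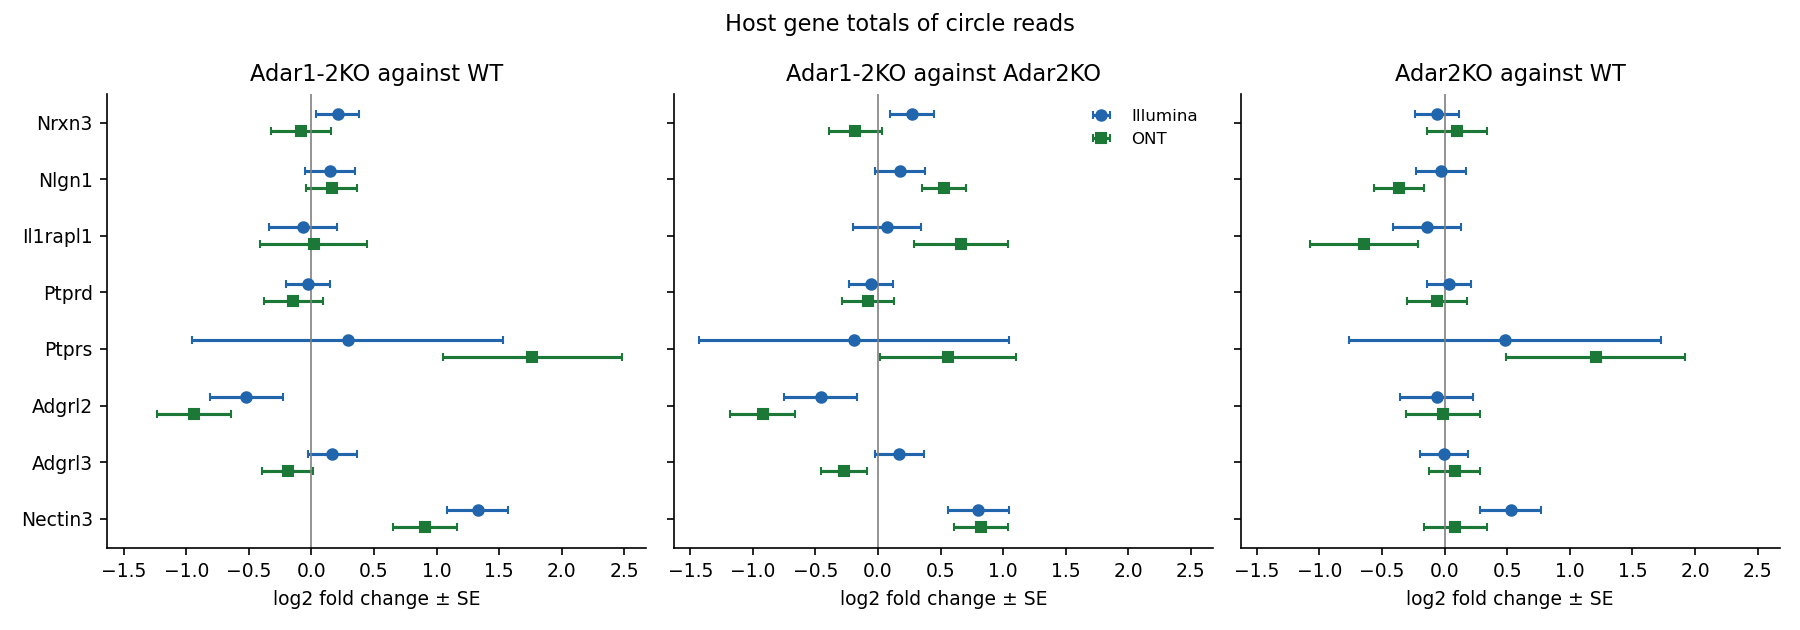
Log2 fold changes (points) and their standard errors (bars) of the summed circle reads of each host gene, with panels for Adar1-2KO against WT, Adar1-2KO against Adar2KO and Adar2KO against WT, on Illumina and ONT. Nectin3 lies at 1.33 and 0.91 in Adar1-2KO against WT and Adgrl2 at -0.52 and -0.94, and Ptprs has the widest errors.

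Most Nectin3 reads came from 1 circle, which joins exon 7 back to exon 6 and held 90.8% of the Nectin3 reads on Illumina and 82.7% on ONT. The opening exon has 139 nt, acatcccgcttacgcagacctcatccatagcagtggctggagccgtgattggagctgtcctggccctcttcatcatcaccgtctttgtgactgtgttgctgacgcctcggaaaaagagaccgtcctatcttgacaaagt, and the closing exon 85 nt, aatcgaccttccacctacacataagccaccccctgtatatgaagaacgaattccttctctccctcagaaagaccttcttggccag, shown because they make up the circle of lowest p. All 8 ONT libraries listed first a form with a further block of 63 nt between them (chr16:46257622-46257684). This run of blocks matched no consecutive exons of a Nectin3 transcript of GENCODE M21. With the block the ring measures 287 nt rather than the 224 nt of both exons. Of 7 ONT Nectin3 circles that span this block, 5 had it in the first-listed form of at least 1 library. For chr16:46256717-46284522 the libraries with such a form held 30 of its 68 ONT reads.

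On Illumina this circle had 3638, 1872 and 5652 reads in Adar1-2KO, 1312, 913 and 2525 in Adar2KO and 1154, 856 and 580 in WT. Its level was 1080, 823 and 1373 CPM in Adar1-2KO, 508, 396 and 844 CPM in Adar2KO and 366, 380 and 364 CPM in WT. All WT libraries lay together below every mutant library. The log2 fold change was 1.56 ± 0.27 in Adar1-2KO against WT (adjusted p = 0.0602 by edgeR), 0.91 ± 0.27 in Adar1-2KO against Adar2KO (adjusted p = 0.764) and 0.65 ± 0.27 in Adar2KO against WT (adjusted p = 1). DESeq2 did not call this circle on Illumina in any of the 3 comparisons. On ONT it had 173, 100 and 324 reads in Adar1-2KO, 88, 80 and 78 in Adar2KO and 27 and 38 in WT. The ONT log2 fold change was 1.43 ± 0.31 against WT (adjusted p = 0.31 by edgeR, 0.00861 by DESeq2) and 1.05 ± 0.26 against Adar2KO (adjusted p = 0.168 by edgeR, 0.0183 by DESeq2). In the CIRI2 counts of the same Illumina reads, it had 1863 and 5793 in Adar1-2KO replicates 2 and 3, 1271, 923 and 2958 in Adar2KO and 1141, 980 and 558 in WT.

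Without Adar1-2KO replicate 3, the log2 fold change of this circle against WT was 1.38 ± 0.27 on Illumina and 1.27 ± 0.28 on ONT (adjusted p = 0.211 and 0.127 by edgeR), and against Adar2KO it was 0.73 ± 0.27 and 0.91 ± 0.23. Within the flow cell that holds all WT libraries, Adar1-2KO replicate 2 differed from WT by 1.17 ± 0.18 and Adar2KO replicate 3 by 1.19 ± 0.18 (adjusted p = 0.174 and 0.266 by edgeR), and the mutants differed from each other by -0.02 ± 0.24. Each mutant has 1 library there, which is assumed to vary like the WT libraries. Over all 19 settings the log2 fold change in Adar1-2KO against WT lay between 1.17 and 1.93, with an adjusted p of 8.81e-10 to 0.368 by edgeR or DESeq2. It passed the threshold of the setting in 4, among them the setting that raised this threshold to 0.1. In Adar1-2KO against Adar2KO it lay between -0.02, within the flow cell, and 1.27.

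Summed on Illumina, the other Nectin3 circles had 71.2, 53.2 and 59.0 CPM in Adar1-2KO, 76.3, 110 and 80.2 CPM in Adar2KO and 99.1, 85.8 and 50.8 CPM in WT. All Adar1-2KO libraries lay below all Adar2KO libraries, and each mutant overlapped with WT. The circle of exons 2 to 7 (chr16:46256717-46284522), which closes at the same exon, had 102, 42 and 0 reads in Adar1-2KO, 71, 113 and 87 in Adar2KO and 138, 116 and 39 in WT. A circle of exons 2 to 5 (chr16:46274987-46284522) had 53, 26 and 0 reads in Adar1-2KO, 44, 79 and 81 in Adar2KO and 116, 39 and 21 in WT. The exon 6 to 7 circle thus took 93.8%, 93.9% and 95.9% of the Nectin3 reads in Adar1-2KO, 86.9%, 78.2% and 91.3% in Adar2KO and 78.7%, 81.6% and 87.7% in WT. All Adar1-2KO shares lay above those of the other groups (exact two-sided permutation p = 0.1 for either comparison, the smallest possible with 3 against 3).

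**Figure D4:**
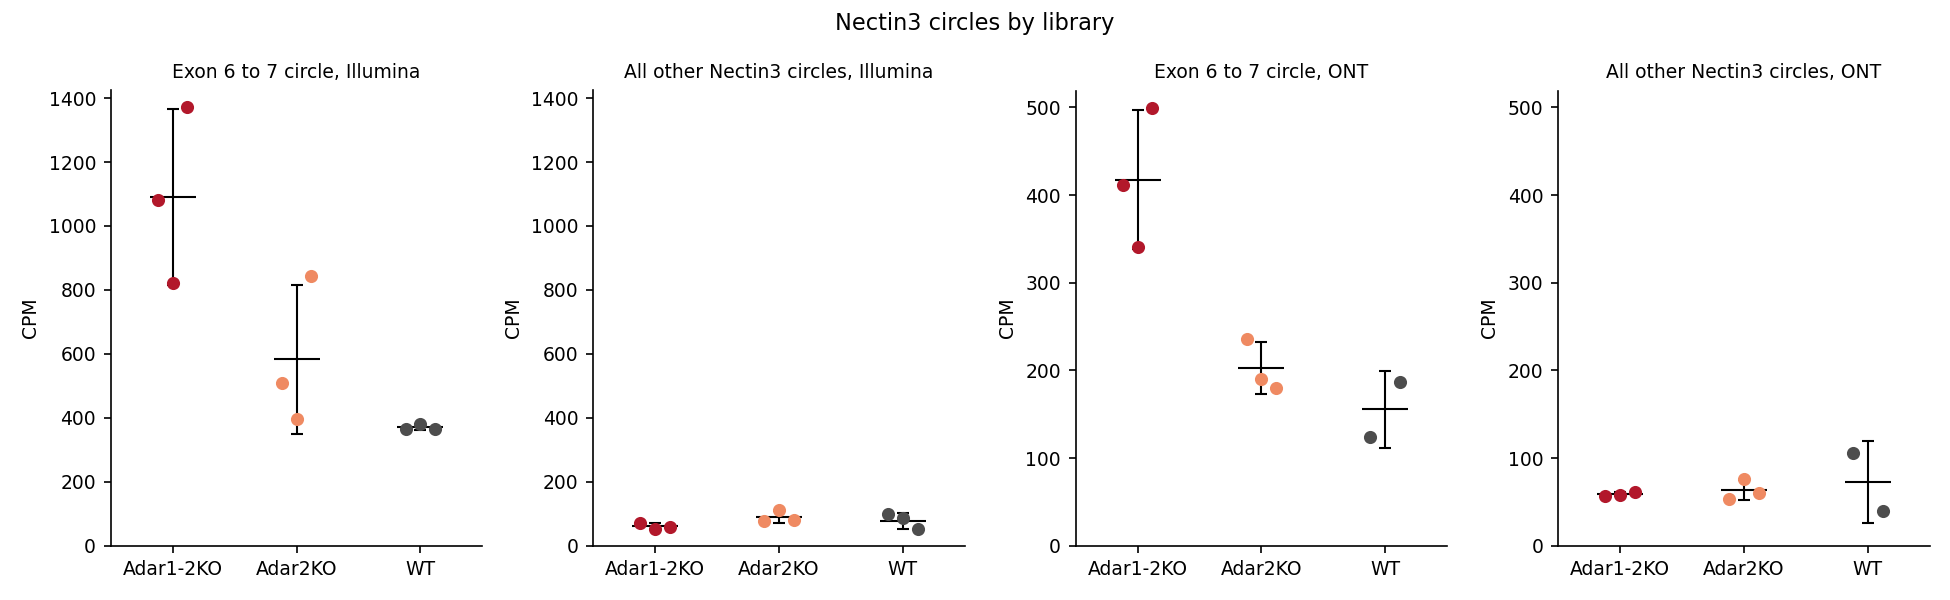
CPM of the Nectin3 circle of exons 6 and 7 and of all other Nectin3 circles summed, on Illumina and on ONT, for Adar1-2KO, Adar2KO and WT; points are libraries, bars show mean ± SD, and the 2 panels of a platform share their axis. The exon 6 to 7 circle lies at 823 to 1373 CPM in Adar1-2KO and 364 to 380 CPM in WT on Illumina, and the other circles stay at or below 110 CPM in every library.

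CIRIquant also counts forward-splice reads, which join the ends of a circle to the next exons of linear RNA, and the circular share compares both kinds. After RNase R, the linear RNA counted is what was left by the digestion, so the share is not the circular-to-linear level in brain. The part of the digestion in differences between libraries was not tested. Of the 34 member circles with at least 20 reads of both kinds summed in every library, 1 passed the limma test in Adar1-2KO against Adar2KO (background 0.189% of 6353 circles), 0 in Adar1-2KO against WT (background 0.0944%) and 1 in Adar2KO against WT (background 0.0787%). At an unadjusted p under 0.05 there were 2, 1 and 3 of the 34, beside 5.12%, 4.82% and 2.93% of all circles. The Adgrl2 circle of exons 5 to 10 was the one past the threshold in both comparisons. Its forward-splice reads were 0 in all Adar1-2KO libraries, 141, 134 and 87 in Adar2KO and 0 in all WT libraries. The log2 ratio of back-splice to forward-splice reads was -8.12 ± 0.97 in Adar2KO against WT (adjusted p = 0.0462 by limma) and was 8.10 ± 0.97 higher in Adar1-2KO than in Adar2KO (adjusted p = 0.0235), both against groups at 0, so the sizes depend on the pseudocount of 0.5. The deposited tables do not tell an absence of linear reads from a failed count, and both calls rest on these zeros. The first of these calls was lost with a pseudocount of 1 and without WT replicate 1 or Adar1-2KO replicate 2, and both were lost without any 1 Adar2KO library.

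Zeros of this kind were common. Of 47 member circles listed in all 9 Illumina libraries, 31 (66.0%) had both a library at 0 forward-splice reads and one at 50 or more, and so had 57.6% of all 9457 circles listed in every library. The Nlgn1 exon 3 circle had 0, 0 and 0 forward-splice reads in Adar1-2KO, 1065, 768 and 1245 in Adar2KO and 0, 1108 and 0 in WT. The Nectin3 exon 6 to 7 circle had 0, 0 and 672 in Adar1-2KO, 0 in all Adar2KO libraries and 0, 178 and 0 in WT. The leading Adgrl3 circle had 0 in all 9 libraries. Circles of this kind are among the 34 tested for circular share.

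**Figure D5:**
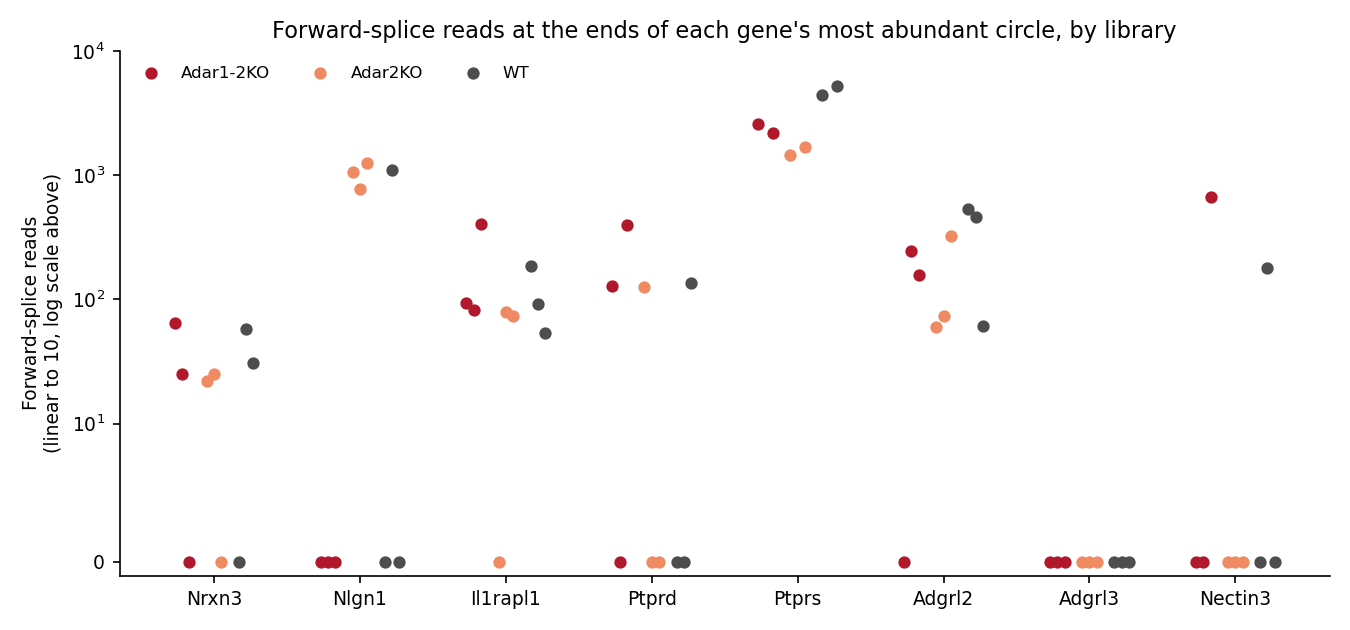
Forward-splice reads at the ends of the most abundant Illumina circle of each host gene, by library of Adar1-2KO, Adar2KO and WT, on an axis that is linear to 10 and logarithmic above. For Nlgn1 the values are 0 in 5 of the 9 libraries and 768 to 1245 in the other 4, and for Adgrl3 they are 0 in all 9.

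The platforms shared 148 of the circles, which is 27.1% of the Illumina list and 56.1% of the ONT list of these genes. The shared circles held 91.0% of the Illumina reads and 84.2% of the ONT reads. Of 49 circles tested on both, 40 had the same sign of log2 fold change in Adar1-2KO against WT, 36 in Adar1-2KO against Adar2KO and 26 in Adar2KO against WT. The share of equal signs over all circles was not computed. Libraries of both platforms carry the same replicate numbers and may come from the same brains, so the platforms are not taken as independent replication. Intronic circles were 34.8% of the member circles on Illumina, against 14.2% of all circles, and 225 of the 546 were listed in 1 library only.

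The authors' deposited table for Adar1-2KO against WT holds 447 of these circles among 160909, and 0 of them had an adjusted p under 0.05, beside 54 of all circles. In the authors' deposited table the lowest p among them was 0.0161 (adjusted p = 0.911), for the Ptprd circle chr4:76046722-76058939 with a log2 fold change of -2.97. The circles of lowest p taken from that table ran to a p of 0.0376. The leading Nectin3 circle, of lowest p by edgeR on Illumina (unadjusted p = 4.83e-05), was not among them. Its value in the authors' table, if it is listed there, is not given here. The authors' deposited table for Adar2KO holds 772 circles, all with a p under 0.05, and 0 of these are from the 8 genes.

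Among 112 other genes of synaptic adhesion and their cytoplasmic partners, 83 were tested as hosts on Illumina and 71 on ONT, and 0 passed in either direction in any of the 3 comparisons by edgeR. The share of all host genes that passed was 0.104%, 0.0463% and 0.0695% on Illumina and 0.0376%, 1.03% and 0.0751% on ONT. The order is Adar1-2KO against WT, Adar1-2KO against Adar2KO and Adar2KO against WT. At an unadjusted p under 0.05 there were, in the same order, 5, 2 and 0 on Illumina, beside 7.71%, 6.58% and 1.76% of all host genes. On ONT there were 7, 10 and 1, beside 10.2%, 13.1% and 5.92%. The lowest p on Illumina was that of Igsf11, a synaptic adhesion gene of the immunoglobulin superfamily, with 240 CPM in Adar1-2KO, 116 CPM in Adar2KO and 121 CPM in WT (0.99 ± 0.29 against WT, adjusted p = 0.468). On ONT it was that of Shank3, a scaffold of the postsynaptic density, with 180 CPM in Adar1-2KO, 434 CPM in Adar2KO and 467 CPM in WT (-1.41 ± 0.44 against WT, adjusted p = 0.261 by edgeR). Their median log2 fold change in Adar1-2KO against WT was -0.13 on Illumina, beside -0.07 over all host genes, and -0.03 on ONT, beside 0.16.

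The host genes whose Illumina totals followed those of each member most closely over the 9 libraries were Dnajc6 for Nrxn3, Yeats2 for Nlgn1, Dgki for Il1rapl1, Ctnnd1 for Ptprd, Prkaa1 for Ptprs, Ntng2 for Adgrl2, Kansl1 for Adgrl3 and Rbm5 for Nectin3. The measure was the root mean square difference of centred log2 CPM over 2868 hosts with a mean of at least 100 reads. It was 0.0719 to 0.150 for the 6 members other than Ptprs and Nectin3, for which it was 0.436 and 0.254. The members' own log2 values had an SD of 0.130 to 0.404 for those 6, 1.56 for Ptprs and 0.635 for Nectin3. A low difference thus goes partly with a member that varied little, as for Ptprd, at 0.0903 beside an SD of 0.130.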

How the data were processed

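Circular RNA of whole mouse brain was sequenced in 9 Illumina libraries and 8 ONT libraries of 3 genotypes. Per the submitters' processing notes, bcl2fastq and BWA 0.7.17 were used with GRCm39 (mm39), and per the file headers CIRIquant 1.1.2 gave the Illumina tables. The authors' tables hold counts of back-splice and forward-splice reads per circle, a junction ratio as a fraction, and CPM of mapped reads per the file headers. The deposited CIRI2 tables (8 libraries) and ONT tables hold counts from 2 upward, and the ONT caller is not given in the sources used here. In the CIRIquant tables of the 3 Adar1-2KO libraries the headers were found 1 column left of the deposited values, by recomputing the ratio from the counts, and the columns were read by content. The authors' deposited comparison tables (DESeq2 2.11.40.8 per the submitters' processing notes) give a normalized signal, a log2 fold change, a Wald score and p-values.

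Circles were defined by chromosome, start and end, and reads were summed per host gene. A feature was tested where 3 or more libraries held 5 or more reads. Each platform had 1 edgeR 4.0.16 fit of all its libraries, scaled by TMM, and two-sided quasi-likelihood F-tests adjusted by Benjamini-Hochberg over all features (threshold 0.05). SE is the log2 fold change over the root of F. For the circular share, limma 3.58.1 was run on log2 ratios of back-splice to forward-splice reads, with 0.5 added to each. DESeq2 1.42.0 was an alternative. Scripts were tested on simulated data. Named were the 3 leading Illumina circles of each gene, those that passed, up to 3 of lowest p per comparison, and the nearest host genes; circles singled out beside these were chosen after their values were seen. The members and lists were chosen with earlier results of these data known. The labels call the replicates biological. Each SE takes in the spread between libraries as fitted by edgeR or limma, whereas floors cover counting error only. Same-numbered libraries did not deviate together (correlations of -0.0305 to 0.0198 on Illumina and -0.0335 to 0.0434 on ONT), so replicate numbers were not used to pair samples. No strand-marking step is named, so antisense circles are uncertain.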

Additional observations from a re-analysis of the deposited data

How the results depend on the processing

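With the edgeR test 0 circles of the 8 genes passed in every comparison, and this count became 1 on Illumina in Adar1-2KO against WT at a threshold of 0.1, with no filter on low counts or without Adar2KO replicate 3, each time the Nectin3 circle of exons 6 and 7. In Adar1-2KO against Adar2KO it was 1 with DESeq2 (the intronic Il1rapl1 circle) and 2 with no filter. The Nectin3 host total passed (1 gene) in Adar1-2KO against WT on Illumina at 0.1, with DESeq2 and with no filter, and in Adar1-2KO against Adar2KO with no filter (1 gene). On ONT, DESeq2 gave 2 circles against WT and 3 against Adar2KO, and in Adar1-2KO against Adar2KO it gave 3 host genes, of which 1, Nectin3, passed edgeR at 0.1. The circular share call of 1 circle became 0 in Adar2KO against WT with a pseudocount of 1, and in both comparisons with at least 50 reads in every library. Leaving out 1 library at a time gave 0 to 1 calls for the circular share and for Illumina circles. The replicate block, although the numbers do not pair the libraries, gave 1 Illumina circle in Adar1-2KO against WT (Nectin3, adjusted p = 0.0238 by edgeR) and 0 circular share calls in either comparison, and changed no other count for the 8 genes. The fit within 1 flow cell was chosen after seeing the data. Library sizes from mapped reads moved the median log2 fold change of all Illumina circles by 0.33 in Adar1-2KO against WT, 0.21 in Adar1-2KO against Adar2KO and 0.13 in Adar2KO against WT. Among single circles and genes 21 results came to pass and 13 no longer passed under an alternative, and none that passed changed sign. Except where the alternative drops libraries or features, the cause was not tested. Depth limits Ptprs and the circles of few reads, where 3 counts stand for 0.729 to 1.88 CPM on Illumina and 4.63 to 14.7 CPM on ONT.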

Other observations

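On ONT a pair of nearly coincident Adgrl3 circles within exon 6 took turns between libraries. The circle chr5:81659849-81660613, listed as antisense, had 93, 0 and 158 reads in Adar1-2KO, 73, 0 and 133 in Adar2KO and 54 and 0 in WT replicates 2 and 3. The circle chr5:81659858-81660631, listed on the strand of the gene, had 0, 82 and 0 reads in Adar1-2KO, 0, 86 and 2 in Adar2KO and 0 and 40 in the same WT libraries. Each library thus listed mainly one of them, and the choice did not follow genotype.

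Another low-count Adgrl3 circle on ONT, chr5:81535622-81613151, had 5, 6 and 52 reads in Adar1-2KO, 5, 7 and 4 in Adar2KO and 0 and 0 in WT (adjusted p = 0.466 for Adar1-2KO against WT by edgeR). The floor of 3 counts in the WT libraries is above the Adar2KO level.

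The Ptprd circle chr4:75916738-75968676 had 406 of its 410 Illumina reads in Adar1-2KO replicate 3, and the other 8 libraries had 0 or 2 each. It was not tested under the filter of 3 libraries, and its call without a filter rests on that library.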
